A study of Mus musculus with 6 samples.

Results

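The interferon-stimulated genes described here are 38 listed genes whose products carry out, relay or restrain the antiviral response to interferon. They were found on the array by the gene symbol of each probe set, and 36 of them had at least 1 probe set that names that gene alone, 52 probe sets in all out of 45037 tested. The only probe set for Isg15, the ubiquitin-like modifier, also names another gene, and Ifi44 had no probe set under that symbol, so both are not analysed here. RNA came from the cerebral cortex of mice at postnatal day 29. There were 3 samples labelled HtrA2 knockout and 3 labelled wild type, all from littermates, with 1 Affymetrix array per sample. HtrA2 is a protease that resides between the membranes of mitochondria. The series asks which transcripts differ without it, in a brain region that the submitters chose because they saw no loss of neurons there. How the knockout allele was made, the strain and the sex of the mice are not given in the sources used here.

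Interferons are secreted proteins that cells release after sensing viral or misplaced nucleic acid. Type I interferons bind a receptor whose kinases phosphorylate STAT proteins, and a complex that includes STAT2 and IRF9 then enters the nucleus and binds a DNA motif, the interferon-stimulated response element, in the promoters of target genes. The targets block viral entry, translation and replication, and some of them, such as Irf7 and Usp18, feed back on the pathway itself. In the brain, microglia, astrocytes, endothelial cells and neurons can all mount this response, and it is kept low in healthy cortex.

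As a set, the listed interferon-stimulated genes were higher in HtrA2 knockout cortex than in wild type cortex. The list was chosen with earlier results of these data known, so its contrast with all genes is a description and not a test. Among the 36 measured genes 8 passed the test as higher, 0 passed as lower and 28 passed in neither direction. The genes that rose were Ifit3, Usp18, Ifit1, Rtp4, Xaf1, Irf9, Lgals3bp and Irf7, by between 0.52 and 1.51 on the log2 scale, or 1.43-fold to 2.84-fold. The share that rose was 22.2% of the measured members. Over all 18193 genes with a probe set of their own, 1.64% were called higher and 1.67% lower. Each of the 8 rises was seen at 1 probe set, and 0.884% of all probe sets on the array were called higher. At an unadjusted p under 0.05, 0 members were lower and 21 were higher, against 14.4% of all genes that were higher. The test was limma's moderated test over all probe sets, with Benjamini-Hochberg adjustment and a threshold of 0.05. Levels are RMA values, on a log2 scale. Differences are knockout minus wild type, each followed by ± its standard error, from 3 arrays per group. In a tissue sample, a change in how many cells express a gene and a change in RNA per cell cannot be told apart.

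The shift was broader than the called genes. The median log2 fold change of the 36 members, at the probe set with the highest mean for each gene, was 0.52, against 0.02 over all genes. Values ran from -0.07 (Stat2) to 2.28 (Cxcl10). Of the 52 member probe sets, 47 lay above 0, against 51.3% of all probe sets. At 25 of the 52, or 48.1%, every knockout array lay above every wild type array, where this held for 11.6% of all probe sets, and at 0 did every knockout array lie below. The same number, 25, were higher at an unadjusted p under 0.05, against 8.33% of all probe sets. A difference of more than 1 log2 unit was measured for 7 members, of which 4 passed the test and Cxcl10, Oasl2 and Iigp1 did not, against 47 of all genes, or 0.258%. At an adjusted p under 0.10, 18 members were called higher, against 4.07% of all genes.

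**Figure D1:**
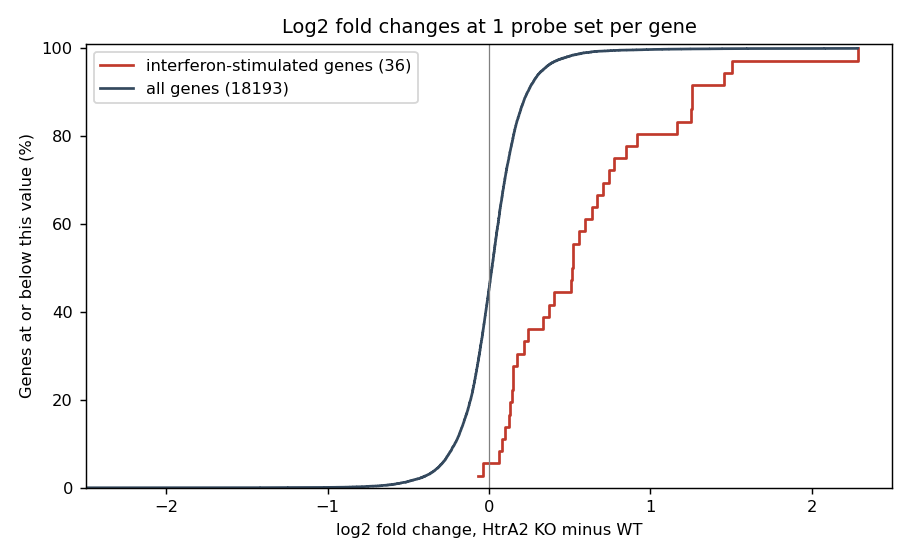
Cumulative share of genes (percent, vertical axis) by log2 fold change of HtrA2 KO minus WT (horizontal axis), at 1 probe set per gene, for the 36 interferon-stimulated genes and for all 18193 genes. The curve of the members is displaced to the right, with a median of 0.52 against 0.02 for all genes.

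The count of called members depends on single arrays, as the count over all genes does. Without knockout replicate 2, 23 members were called higher (8.12% of all genes), and without knockout replicate 1, 3 were (0.61% of all genes). Without knockout replicate 3 the count was 0 (0.231% of all genes). It was also 0 by limma without wild type replicate 1, 2 or 3 (0.176%, 0.159% and 0.214% of all genes). At an unadjusted p under 0.05, the members higher without knockout replicate 1, 2 or 3 numbered 20, 29 and 24, against 12.5%, 21.4% and 11.3% of all genes. Without wild type replicate 1, 2 or 3 they numbered 21, 20 and 21, against 9.94%, 9.38% and 12.4% of all genes. At that threshold 1 member, Oas3, was lower without knockout replicate 2, and 0 were lower in the other omissions. The median over the members ran between 0.41 and 0.62. Ifit3 and Lgals3bp kept their call in 2 of the 6 omissions, and the other called members in 1, the omission of knockout replicate 2.

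The Ifit proteins, which bind viral RNA and block its translation, are encoded in a cluster. In the RefSeq gene order of GRCm38.p6, Ifit2 is adjacent to Ifit3, and 3 protein-coding genes lie between Ifit3 and Ifit1. Ifit3 stood at 9.13, 8.22 and 8.90 in knockout replicates 1, 2 and 3, against 7.35, 7.31 and 7.05 in wild type replicates 1, 2 and 3. It rose by 1.51 ± 0.21 (2.84-fold, adjusted p = 0.0205). Ifit1 had 7.01, 6.17 and 6.79 in the knockout arrays, against 5.59, 5.42 and 5.20 in the wild type arrays, a rise of 1.26 ± 0.21 (adjusted p = 0.0301). In both genes replicate 2 was the lowest knockout array and still lay above every wild type array. Ifit2 did not pass. Its level was 8.33, 7.76 and 8.44 in the knockout arrays and 7.41, 7.42 and 7.47 in the wild type arrays, with a difference of 0.75 ± 0.16 (adjusted p = 0.0677) and no overlap between the groups.

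Promoter sequences show the response element upstream of the 2 called Ifit genes. The motif searched was its repeated core, 2 copies of GAAA separated by any 2 bases, on both strands, in the 250 bases before each gene start, where overlapping matches were counted separately. The stretches below are from RefSeq sequence of build GRCm38.p6, in the direction of the gene, which is the plus strand for both, and capitals mark the matches. They are shown because, of the 6 called members with a promoter sequence, these have a match. Rtp4 and Usp18 were not searched. The Ifit3 stretch is chr19:34583353-34583436, with matches that begin 156 and 122 bases before the start. The Ifit1 stretch is chr19:34640765-34640833, with matches that begin 104 and 85 bases before the start.
Ifit3: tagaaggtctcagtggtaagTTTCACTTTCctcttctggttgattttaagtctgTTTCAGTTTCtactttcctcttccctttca
Ifit1: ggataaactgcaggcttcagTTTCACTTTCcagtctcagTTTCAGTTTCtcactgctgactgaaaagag
In both promoters the matches read on the opposite strand, so they appear as TTTC repeats, and both promoters hold the same pair of matches in the same order.

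A promoter sequence was given for 27 of the 36 members, and 13 of these, or 48.1%, held the motif, against 936 of 27025 genes, or 3.46%. Among called members with a promoter sequence 2 of 6 held it, and among the others 11 of 21 did. These 11 were Cxcl10, Rsad2, Gbp2, Trim30a, Igtp, Irgm1, Bst2, Gbp3, Oas1a, Oas3 and Stat2. The median log2 fold change was 0.52 over the 13 members with the motif and 0.56 over the 14 without. Irf7, Irf9, Xaf1 and Lgals3bp had no match in this window. The gamma-activated site, a motif of genes that interferon gamma induces, was searched as TTC and GAA separated by any 3 bases on both strands, and it was found in 6 of 27 members, or 22.2%, and in 8.13% of all genes. Among called members 0 of 6 held this site, and among the others 6 of 21 did. A match is a run of letters and was not measured as a bound site.

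Of the 5 transcription factors of the pathway, 2 rose, where 1.64% of all genes were called higher. Irf9 is the DNA-binding subunit of the complex that interferon activates, and its level was 7.60, 7.11 and 7.74 in the knockout arrays, against 6.59, 6.65 and 6.65 in the wild type arrays. The rise was 0.85 ± 0.15 (adjusted p = 0.0372). Irf7, which drives the amplifying wave of interferon transcription, had 6.49, 6.29 and 6.40 in the knockout arrays and 5.90, 5.82 and 5.90 in the wild type arrays, a rise of 0.52 ± 0.08 (adjusted p = 0.0264). Both genes were higher on each of the 3 knockout arrays than on any wild type array. Stat2, the partner of Irf9, differed by -0.07 ± 0.11 at one probe set, with overlap, and by 0.20 ± 0.09 at another, without overlap. Irf8, a factor of microglia and other myeloid cells, differed by 0.15 ± 0.15 and 0.12 ± 0.08 at its 2 probe sets. Irf1, which interferon gamma induces strongly, differed by 0.06 ± 0.08, with levels of 7.97, 8.14 and 7.90 in the knockout arrays and 7.94, 7.89 and 7.98 in the wild type arrays. The groups overlapped for Irf1 and for Irf8 at both probe sets.

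Usp18 removes the Isg15 modifier from proteins and dampens signalling from the type I receptor. It stood at 7.33, 6.11 and 7.04 in the knockout arrays, against 5.36, 5.47 and 5.29 in the wild type arrays, and rose by 1.45 ± 0.27 (2.74-fold, adjusted p = 0.0432). The 3 wild type arrays lay within 0.19 of each other, while the knockout arrays spanned 1.21. Usp18 is encoded on the same chromosome as Htra2, with 304 protein-coding genes between them. Trim25, a ubiquitin ligase that acts on the RNA sensor RIG-I, has 3 probe sets that disagreed. The brightest differed by 0.64 ± 0.16 (adjusted p = 0.0886) with no overlap between groups, and the others by 0.33 ± 0.22 and -0.05 ± 0.11.

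Among the other intracellular effectors, Xaf1, an interferon-induced partner of the apoptosis inhibitor XIAP, had 8.33, 8.01 and 8.55 in the knockout arrays and 7.28, 7.38 and 7.48 in the wild type arrays. It rose by 0.92 ± 0.13 (adjusted p = 0.0227), while a second, dim probe set differed by -0.02 ± 0.11. Rsad2 encodes viperin, an enzyme that makes a chain-terminating nucleotide. Its 3 probe sets differed by 0.45 ± 0.09, 0.94 ± 0.25 and 0.56 ± 0.17 (adjusted p = 0.0558, 0.110 and 0.141), and at each of them the groups did not overlap. So all 3 readings of Rsad2 were separated by genotype but none passed. Samd9l, which restrains viral translation, differed by 0.14 ± 0.13, and its groups overlapped.

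**Figure D2:**
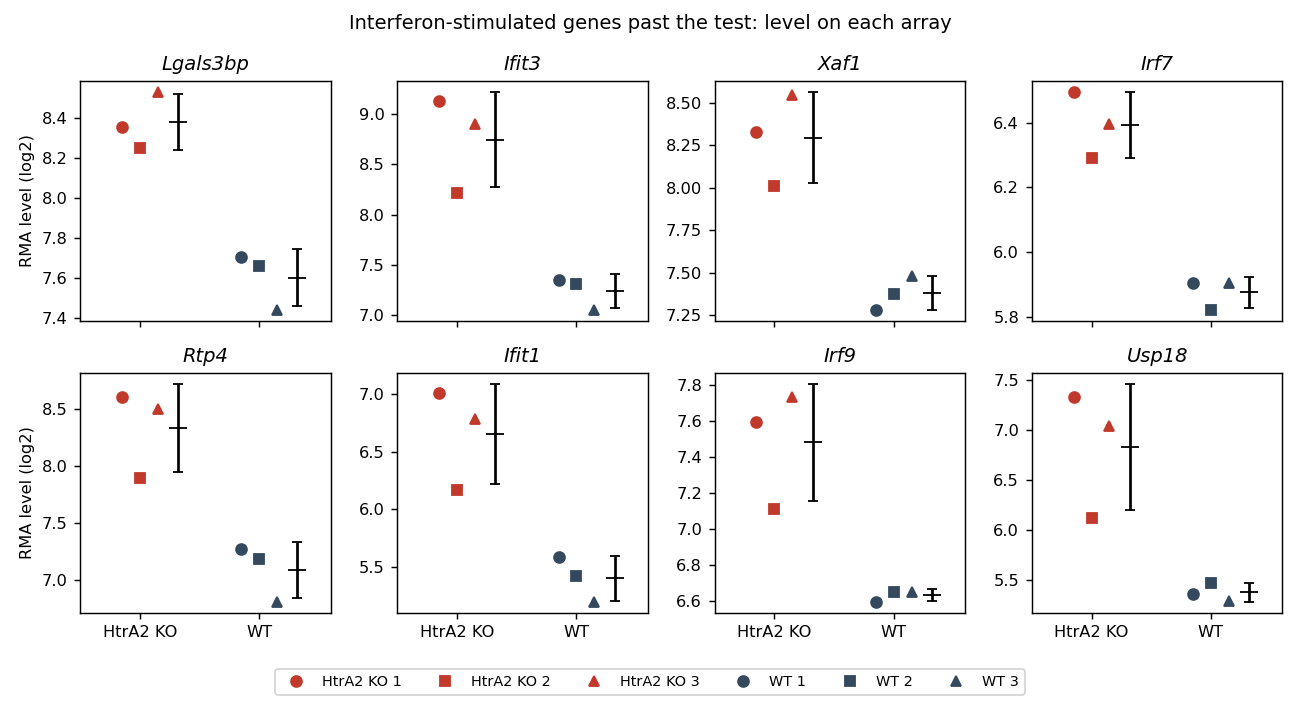
RMA level (log2, vertical axis) of the 8 interferon-stimulated genes past the test on each array, with HtrA2 KO at the left of each panel and WT at the right, and the mean ± SD (n = 3) beside the points. Replicate 2, drawn as a square, is the lowest knockout array in all 8 panels and lies above all wild type arrays. The vertical axes do not start at 0 and differ between panels.

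Of the membrane and secreted products 2 of 6 rose, where 1.64% of all genes were called higher. Rtp4, a chaperone of membrane receptors that interferon induces, had 8.61, 7.89 and 8.50 in the knockout arrays, against 7.27, 7.18 and 6.80 in the wild type arrays, a rise of 1.25 ± 0.20 (adjusted p = 0.0283). A second probe set of Rtp4, with a level near 3.8 in wild type cortex, differed by 0.14 ± 0.10. Lgals3bp, a secreted glycoprotein that binds galectins, had 8.35, 8.25 and 8.53 in the knockout arrays and 7.71, 7.66 and 7.44 in the wild type arrays. It rose by 0.78 ± 0.10 and had the smallest adjusted p of the members (0.0172). The knockout arrays agreed more closely for Lgals3bp, with an SD of 0.14, than for the other called members except Irf7, with an SD of 0.10.

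Cxcl10, a chemokine that attracts T cells, had the largest difference of any member and did not pass. Its level was 9.17, 6.73 and 7.66 in knockout replicates 1, 2 and 3, against 5.46, 5.59 and 5.65 in the wild type arrays. Every knockout array lay above every wild type array, and the knockout arrays themselves spanned 2.44. The difference was 2.28 ± 0.51 (4.87-fold, adjusted p = 0.0722). Ifitm3, which stops viruses from fusing with endosomes, was among the brightest members, at 10.28, 9.77 and 10.09 in the knockout arrays and 9.69, 9.38 and 9.28 in the wild type arrays, with a difference of 0.60 ± 0.15 (adjusted p = 0.0962). Bst2, or tetherin, which holds budding virions at the cell surface, differed by 0.37 ± 0.18, and Ifi27, a small membrane protein, by 0.17 ± 0.09 and 0.13 ± 0.10 at its 2 probe sets. The groups overlapped for Bst2 and Ifi27 and did not for Ifitm3.

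The oligoadenylate synthetase family, some of whose members make the messenger that activates RNase L, gave 0 of 5 members past the test. Over all genes 1.64% were called higher, so a count of 0 of 5 does not set this family apart. Oasl2 differed most, by 1.26 ± 0.25 (adjusted p = 0.0516), with levels of 7.55, 6.66 and 7.52 in the knockout arrays and 6.34, 5.83 and 5.79 in the wild type arrays. Its neighbour Oasl1 differed by 0.22 ± 0.12, with levels of 6.43, 6.08 and 5.98 in the knockout arrays against 6.02, 5.91 and 5.91 in the wild type arrays. Oas1a, Oas2 and Oas3 differed by 0.17 ± 0.09, 0.08 ± 0.10 and -0.04 ± 0.13. In this family only Oasl2 had knockout arrays wholly above wild type arrays, which held for 11.6% of all probe sets. The 2 Mx GTPases, which trap viral nucleoproteins, differed by 0.34 ± 0.16 (Mx1) and 0.10 ± 0.09 (Mx2). Mx1 had no overlap between groups but was dim, with a wild type level of 4.10 that exceeds 11.8% of all probe sets.

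The interferon-induced GTPases, which attack the vacuoles of intracellular pathogens, gave 0 of 5 members past the test, where 1.64% of all genes were called higher. At 4 of the 5, every knockout array lay above every wild type array at 1 or more probe sets. This held for 11.6% of all probe sets. Iigp1 had 7.92, 6.65 and 7.20 in the knockout arrays, against 6.39, 5.91 and 5.98 in the wild type arrays, with a difference of 1.16 ± 0.29 (adjusted p = 0.0911). A second probe set of Iigp1 differed by 0.62 ± 0.31. Igtp and Irgm1 differed by 0.52 ± 0.13 and 0.51 ± 0.14 (adjusted p = 0.0964 and 0.120). Gbp2 differed by 0.91 ± 0.28 and 0.71 ± 0.29 at its 2 probe sets, while Gbp3, a near neighbour in the genome, differed by 0.24 ± 0.19 with overlapping groups. Gbp2 on knockout replicate 1, at 7.09, was 1.24 above replicate 2, at 5.85.

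The remaining regulators gave 0 of 5 past the test, where 1.64% of all genes were called higher. Trim30a, which restrains signalling from Toll-like receptors, differed by 0.52 ± 0.10 and 0.62 ± 0.14 (adjusted p = 0.0521 and 0.0690), and its groups did not overlap at either probe set. Parp9, an ADP-ribosyltransferase that works in a complex with the ubiquitin ligase Dtx3l, differed by 0.67 ± 0.15 (adjusted p = 0.0731). The genes Parp14, Dtx3l and Parp9 are neighbours, and Parp14 and Dtx3l differed by at most 0.17 at their 4 probe sets, with overlap at each. Ifi35 had differences of 0.41 ± 0.15, 0.20 ± 0.09 and 0.12 ± 0.08. Probe sets such as the brightest ones of Trim25, Ifi35 and Gbp2 carry the suffixes _s_at or _x_at, which mark probes that can also hybridise to other transcripts.

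**Figure D3:**
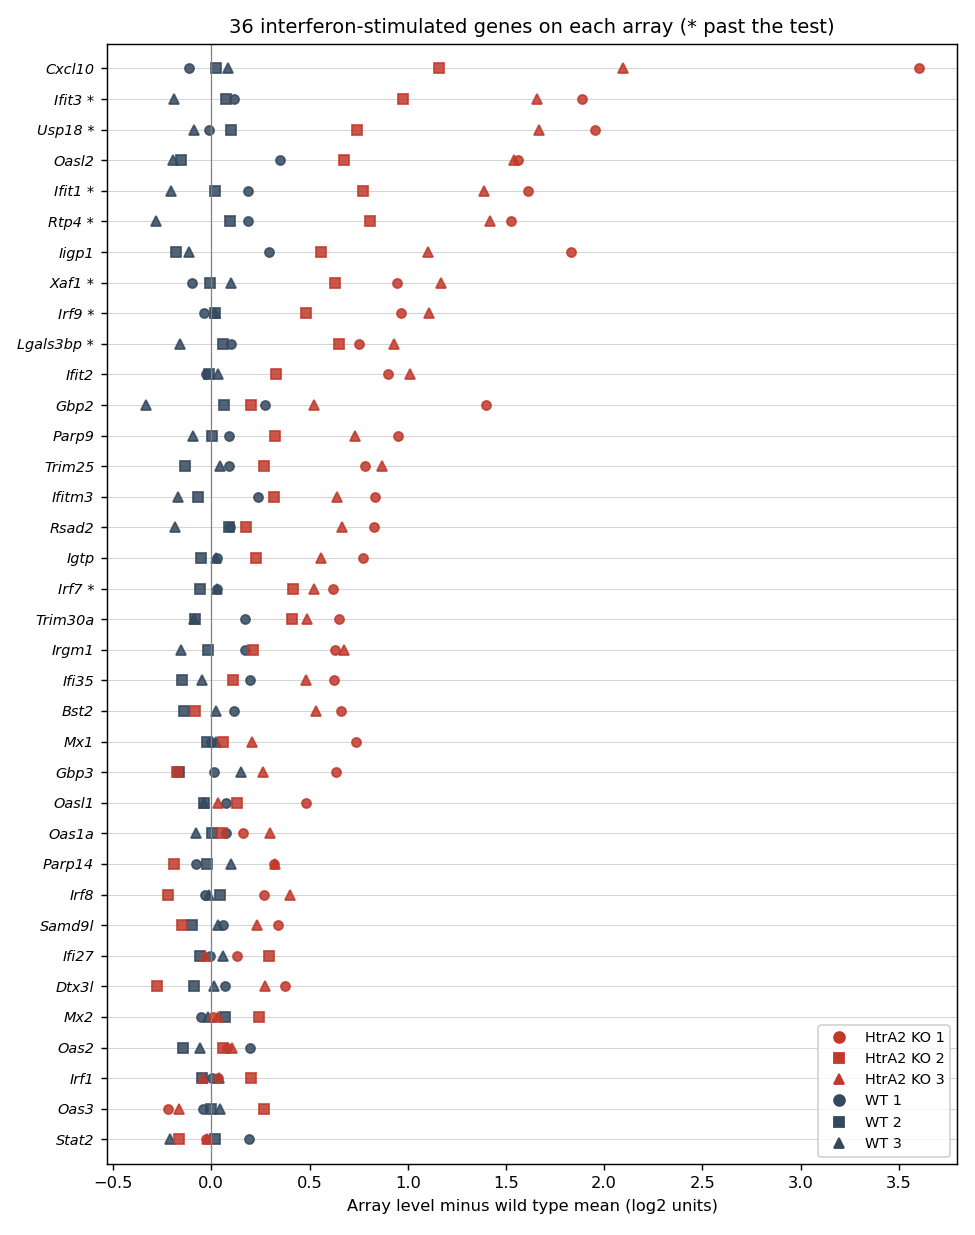
Level of each of the 36 interferon-stimulated genes on each array minus its wild type mean (log2 units, horizontal axis), at the probe set with the highest mean, with genes ordered by fold change and an asterisk on those past the test. Cxcl10 on knockout replicate 1 lies farthest to the right, at 3.60, and the squares of knockout replicate 2 lie left of the other knockout arrays for most genes.

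The 3 knockout arrays differed in how far the members lay above wild type. The mean deviation from the wild type mean over the 36 genes was 0.82, 0.29 and 0.66 in knockout replicates 1, 2 and 3, against 0.08, -0.03 and -0.05 in wild type replicates 1, 2 and 3. All 3 knockout arrays lay above all 3 wild type arrays on this measure. In knockout replicate 1, 31 of the 36 genes lay above every wild type array, in replicate 2 it was 25, and in replicate 3 it was 29, where 37.9%, 40.1% and 35.8% of all genes did so. Replicate 2 was the lowest knockout array at 39 of the 52 member probe sets, or 75.0%, against 36.3% of all probe sets. At the 25 member probe sets without overlap it was the lowest at 24, and over all probe sets of that kind it was the lowest at 52.0%. Variation among the knockout arrays was also larger for the members, with a median SD of 0.27 over the 52 probe sets in knockout and 0.09 in wild type, where the medians over all probe sets were 0.13 and 0.08.

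Knockout replicate 2 also stood apart at 1 probe set of the targeted gene and in the weight that limma gave it. The targeted gene was measured by 2 probe sets. One read 6.42, 7.08 and 6.45 in knockout replicates 1, 2 and 3, against 8.86 to 9.02 in the wild type arrays, and fell by 2.27 ± 0.17 (adjusted p = 0.00227). The other went against it, at 9.27 to 9.35 in the knockout arrays and 8.12 to 8.28 in the wild type arrays, a rise of 1.11 ± 0.08 (adjusted p = 0.00169). The sources used here do not say which part of the transcript each covers. Both probe sets carry the suffix _s_at, which marks probes that can also hybridise to other transcripts. The cause of their disagreement was not tested. Limma's array weights gave replicate 2 a weight of 0.25, against 0.89 to 2.62 for the other 5 arrays. Wild type replicate 2 was the highest array in markers of choroid plexus, with a mean deviation of 0.78 against -0.53 to -0.26 on the other arrays. Y-linked genes were low on 1 array of each group, knockout replicate 3 and wild type replicate 1, so that both groups hold both levels.

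Among genes that act upstream of the members, 3 lists were read, against the 1.64% of all genes called higher and 1.67% called lower. Of 10 measured interferon genes 0 passed in either direction by limma, and 1, Ifna11, did so at an unadjusted p under 0.05. Ifna11 differed by -0.21 ± 0.09, Ifna9 by 0.12 ± 0.08 and Ifna1 by -0.11 ± 0.10, and the median of the list was 0.02. The mean level of the list ran from 4.78 to 4.92 in the knockout arrays and from 4.79 to 4.88 in the wild type arrays. The median of all values was 6.42, so these genes were dim, and a change in them could be missed. Of 15 receptors, kinases and phosphatases 0 rose and 1 fell. It was Ptpn2, a phosphatase that switches off JAK and STAT proteins, which fell by 0.65 ± 0.13 at 1 probe set (adjusted p = 0.0487), while its 3 others differed by -0.45 ± 0.14, 0.12 ± 0.10 and 0.09 ± 0.12. Of 25 nucleic acid sensors and their partners 2 rose and 0 fell, and the median was 0.03. Both are subunits of RNase H2, the enzyme that removes ribonucleotides from DNA: Rnaseh2b rose by 0.51 ± 0.07 (adjusted p = 0.0200) and Rnaseh2a by 0.42 ± 0.07 (adjusted p = 0.0365). The third subunit, Rnaseh2c, named here after its values were seen, differed by -0.38 ± 0.10, -0.31 ± 0.08 and -0.20 ± 0.09 at its 3 probe sets and did not pass.

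In a wider set of 52 measured interferon-stimulated genes outside the members, 2 rose and 0 fell, and the median was 0.15. Over all genes 1.64% were called higher and 1.67% lower, with a median of 0.02. Ifi27l2a, a small mitochondrial or membrane protein that interferon induces, had 6.98, 6.86 and 6.90 in the knockout arrays and 6.37, 6.12 and 6.40 in the wild type arrays, a rise of 0.61 ± 0.09 (adjusted p = 0.0250). Rnf213, a very large ubiquitin ligase, rose by 0.42 ± 0.08 (adjusted p = 0.0476) at 1 of its probe sets. The mean deviation of the list was 0.23, 0.09 and 0.17 in the knockout arrays and between -0.02 and 0.03 in the wild type arrays, so replicate 2 was again the lowest knockout array and the groups did not overlap. Differences between these genes and the members were not tested.

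Marker genes of other cells were read on the same arrays. Of 15 measured markers of meninges and fibroblasts 0 passed and 14 lay above 0, with a median of 0.50. Over all genes the median was 0.02, and 51.3% of all probe sets lay above 0. On knockout replicates 1, 2 and 3 they deviated by 0.48, 0.08 and 0.84 on average, against -0.06, -0.07 and 0.13 on the wild type arrays, and their mean level ran from 8.27 to 9.03 in the knockout arrays and from 8.12 to 8.33 in the wild type arrays. Replicate 2 was the lowest knockout array for these markers, as it was for the members, and lay within the wild type range. Replicate 3 was the highest for these markers and replicate 1 for the members. Endothelial and mural markers deviated by 0.186, 0.007 and 0.18 on the knockout arrays, in the order of the members, against -0.063 to 0.041 in wild type. Markers of monocytes, macrophages and dendritic cells deviated by 0.054, -0.004 and 0.253. Replicate 2 was also lowest for astrocyte, oligodendrocyte and choroid plexus markers. It was not for markers of microglia, cortical neurons, T and NK cells, B cells, neutrophils and erythroid cells. The part of meningeal tissue in the differences of the members was not tested.

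The counts for the other cell types stand against 1.64% of all genes called higher and 1.67% called lower. Of 16 measured microglia markers 3 fell and 0 rose, with a median of -0.40: Itgam fell by 0.72 ± 0.12, P2ry12 by 0.60 ± 0.11 and Tmem119 by 0.47 ± 0.08. Their mean level ran from 8.35 to 8.47 in the knockout arrays and from 8.65 to 8.82 in the wild type arrays. All 3 knockout arrays lay below all 3 wild type arrays. The same held for the mean levels of oligodendrocyte, cortical neuron, B cell and erythroid markers. Markers of T and NK cells had 0 of 10 past the test, with mean levels of 5.53 to 5.75 in the knockout arrays and 5.58 to 5.67 in the wild type arrays. The same count, 0, was found for 11 markers of monocytes, macrophages and dendritic cells, 7 of neutrophils, 14 of endothelial and mural cells and 7 of choroid plexus. Cortical neuron markers were bright on all arrays, with mean levels of 11.63 to 11.70 in the knockout and 11.85 to 11.87 in the wild type, and 1 of 11, Neurod6, fell by 0.66 ± 0.11. Of 12 astrocyte markers 1 rose and 3 fell, among them Gfap, which rose by 0.68 ± 0.09, Acsbg1, which fell by 0.49 ± 0.08, and Aqp4, which fell by 0.59 ± 0.09. Of 10 oligodendrocyte markers 2 fell, Ugt8a by 0.60 ± 0.08 and Olig2 by 0.69 ± 0.12. The median of that list was -0.28, and 0 of its genes lay above 0. Its mean level ran from 11.29 to 11.42 in the knockout arrays and from 11.6 to 11.75 in the wild type arrays. Of 6 B cell markers 1 fell, Ighm, by 1.41 ± 0.14 at the brightest of its probe sets, and of 3 erythroid markers 1 fell, Alas2, by 0.87 ± 0.16. The part of each cell type in the differences of the members was not tested.

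**Figure D4:**
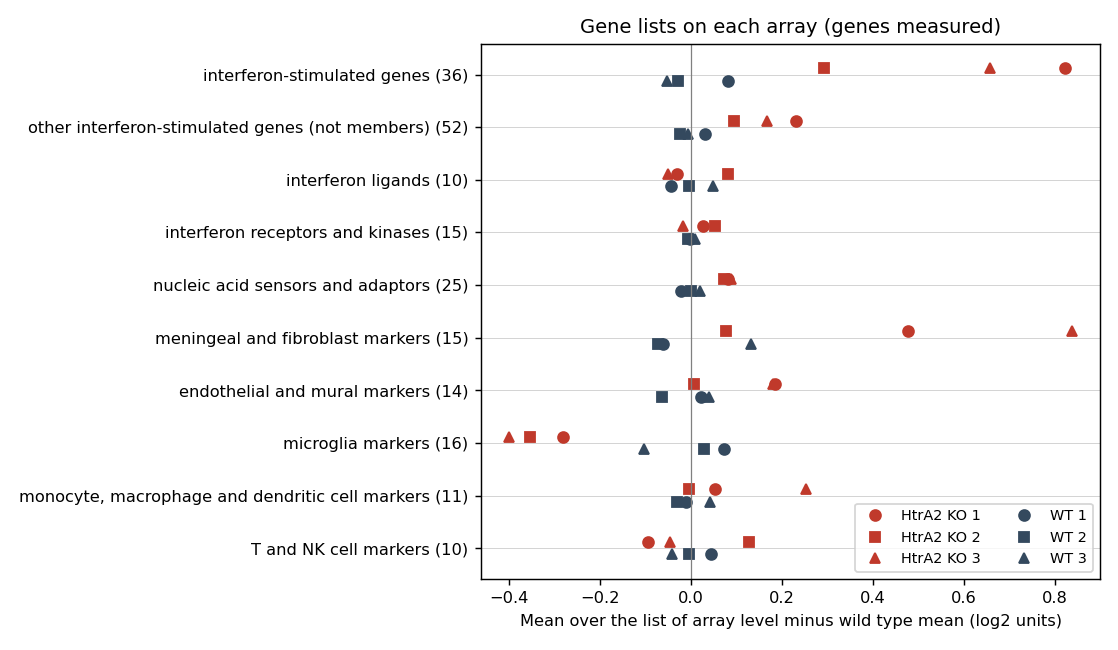
Mean over each gene list of the array level minus the wild type mean (log2 units, horizontal axis), with HtrA2 KO points above WT points in each row and the number of measured genes in brackets. The interferon-stimulated genes lie at 0.29 to 0.82 in the knockout arrays, and the meningeal markers spread from 0.08 to 0.84, with a different array at the top.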

How the data were processed

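The authors deposited 1 table of log2 values for 6 arrays. The submitters' processing notes name RMA, which corrects background, applies quantile normalization and combines the probes of a probe set. That the logarithm is base 2 was inferred from the values. Quantile normalization would hide a change shared by most genes. The files give no detection calls or counts, so 3 arrays per group limit the precision. Here 64 control probe sets were left out and no brightness filter was set. The platform annotation gave 34945 probe sets 1 gene symbol, 932 several and 9160 none. HtrA2_KO was compared with WT by limma 3.58.1 in R 4.3.3 over all 45037 probe sets, with group as the only term. A gene counted as called if 1 probe set naming it alone passed. All members were named. From the other interferon lists, called genes were named, or the 3 with the smallest p where none passed. From each cell type list, up to 3 called genes were named, by smallest p. The members and lists were chosen with earlier results of these data known. The labels do not say that each array is a separate animal, so the p-values reflect only how far these samples spread, which may be technical. Same-numbered arrays of the 2 groups had deviations that correlated at -0.196, -0.041 and -0.169, so the numbers were not taken as pairs. Alternatives were other normalizations, moderation and thresholds, a brightness filter, array weights, covariates, blocks and omitted arrays. The fit was tested on simulated data.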

Additional observations from a re-analysis of the deposited data

How the results depend on the processing

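Of the members, 8 were called higher with all arrays, and in each alternative run 0 were called lower. The median over the members kept its direction in all of them. Leaving out 1 array at a time, the higher count ran from 0 to 23, and the number of probe sets called on the whole array, 796 with all arrays, from 65 to 3037. The higher count and the count over all probe sets were 14 and 1770 with a moderation that follows intensity and resists outliers, 22 and 4205 with array weights, 5 and 441 when the Y-linked level was a covariate, 18 and 2035 at an adjusted p under 0.10, and 0 and 79 at one under 0.01. They were 10 (of 27 tested) and 1806 with dim probe sets left out, and 12 and 314 without both arrays numbered 2. With the replicate number as a block the counts were 2 and 154, and Ifit3 and Xaf1 were the members called, though the numbers are not known to pair the samples. They were 11 and 1081 after further quantile normalization, 8 and 681 after median centring, and 11 and 758 with 1 probe set per gene.

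Of the probe sets that did not pass, 7 changed sign when 1 array was left out. Their log2 fold changes ran from -0.0002 to 0.3254 for Dtx3l, -0.0037 to 0.1174 for Irf1 (-0.0267 without both arrays numbered 2), -0.1757 to 0.0255 for Stat2, -0.1472 to 0.0602 for Trim25, -0.1926 to 0.0517 for Oas3, -0.0852 to 0.0353 for Parp14 and -0.133 to 0.0639 for the dim probe set of Xaf1. Each range is for 1 probe set of the gene. It is the brighter one for Dtx3l and Stat2, the dimmer one for Parp14 and the dimmest one for Trim25. Other probe sets of these genes kept their sign in each omission. The cause of the sign changes was not tested.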
